A study of Mus musculus with 9 samples.

Results

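The 10 transcription factor genes of the Egr, Nr4a and Klf families described here were followed across long-term haematopoietic stem cells (LT-HSCs) of wild-type, Cxcl10-/- and Cxcr3-/- mice. They are Egr1, Egr2, Egr3, Nr4a1, Nr4a2, Nr4a3, Klf2, Klf4, Klf6 and Klf10, chosen by name, and they are 10 of the 22322 genes in the expression table. Of the 10, 6 were abundant enough to be tested. The other 4, Egr2, Egr3, Nr4a3 and Klf4, averaged under 1 FPKM (a fragment count scaled to transcript length and library size) over the 9 libraries. The study had sorted bone marrow cells of C57BL/6 mice aged 6 to 8 weeks that lacked lineage markers (Lin-), CD135 and CD48 and carried CD150, c-Kit and Sca-1, a combination that defines LT-HSCs. Each library was made from 500 to 800 sorted cells of 1 mouse, and there were 3 mice per genotype: wild type (WT), mice lacking the chemokine gene Cxcl10, and mice lacking Cxcr3, the gene of the receptor that binds the chemokine. No treatment was named for any group. Neither the construction of the alleles nor the litter, sex or sorting day of a mouse is given in the sources used here.

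EGR proteins are zinc-finger factors and NR4A proteins are orphan nuclear receptors, and the genes of both families belong to the immediate-early genes, which are transcribed within minutes of a stimulus without new protein synthesis. Growth factor, calcium and cAMP signals reach them through kinases of the MAPK cascade and through the factors SRF with its ELK partners, CREB and MEF2. KLF proteins are zinc-finger factors that bind GC-rich and CACCC sequences. KLF2 is known for its induction by blood flow in endothelium and for its part in lymphocyte quiescence, and KLF4, KLF6 and KLF10 respond to growth factor, injury and TGF-beta signals. In the blood system EGR1 and the NR4A receptors are known as factors that keep HSCs quiescent, and EGR1 has been linked to their retention in the marrow.

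The promoter sequences of 7 members show which of the signals' known binding sequences lie next to those genes. RefSeq promoter windows on GRCm38.p6, from 250 bases before to 50 bases after a transcription start, matched 7 of the 10 members, with 5 windows for Egr2. Egr1, Egr3 and Klf10 had no window, so their promoters were not searched. The Nr4a windows are printed 5′ to 3′ because they hold equal numbers of one motif, 1 window of Egr2 for another motif, and that of Klf2 as the member with the largest fold change. Bases inside annotated exons are left out. Capitals mark the core TGACG of the cAMP response element (CRE), or its reverse complement CGTCA, and the CArG box, the binding sequence of SRF.
Nr4a1, chr15:101266596-101266845, plus strand: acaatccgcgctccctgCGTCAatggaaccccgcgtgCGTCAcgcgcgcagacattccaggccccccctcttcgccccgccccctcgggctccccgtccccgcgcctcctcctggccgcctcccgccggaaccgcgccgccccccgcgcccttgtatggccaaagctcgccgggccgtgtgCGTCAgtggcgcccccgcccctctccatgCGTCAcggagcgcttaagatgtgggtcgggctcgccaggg
Nr4a2, chr2:57124004-57124253, minus strand: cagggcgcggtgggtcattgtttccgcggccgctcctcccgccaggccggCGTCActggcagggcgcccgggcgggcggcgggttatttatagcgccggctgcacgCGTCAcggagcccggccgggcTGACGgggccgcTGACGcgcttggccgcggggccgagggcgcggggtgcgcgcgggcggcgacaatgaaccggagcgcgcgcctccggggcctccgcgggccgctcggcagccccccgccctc
Nr4a3, chr4:48045055-48045152, plus strand: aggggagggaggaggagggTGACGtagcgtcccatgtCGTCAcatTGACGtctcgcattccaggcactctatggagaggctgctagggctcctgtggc
Egr2, chr10:67537619-67537868, plus strand: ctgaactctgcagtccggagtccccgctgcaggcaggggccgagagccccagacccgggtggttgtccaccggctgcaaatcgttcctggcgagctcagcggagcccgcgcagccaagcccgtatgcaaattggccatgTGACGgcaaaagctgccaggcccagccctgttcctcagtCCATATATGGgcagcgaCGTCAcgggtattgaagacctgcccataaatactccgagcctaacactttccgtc
Klf2, chr8:72318812-72319032, plus strand: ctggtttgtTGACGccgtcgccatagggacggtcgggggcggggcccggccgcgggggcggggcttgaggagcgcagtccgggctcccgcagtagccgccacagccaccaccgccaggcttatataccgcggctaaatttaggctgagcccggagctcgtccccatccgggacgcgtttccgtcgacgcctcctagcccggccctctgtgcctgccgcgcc

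All 3 Nr4a windows held 4 CRE cores, counted on both strands over the 300 bases. The fourth core of Nr4a3 lies in exon sequence and is not printed. Of 32851 RefSeq windows of that length, 20.8% held at least 1 CRE core, and 76 windows (0.231%) held 4 or more. The CArG box was found in 4 of the 5 Egr2 windows, of which 3 overlap each other, and in no window of the other members searched, against 1.63% of all windows. Without a window, Egr1, Egr3 and Klf10 could not be searched for it. The EGR binding sequence GCGNGGGCG occurred once each in the windows of Nr4a1, Nr4a2 and Klf2, and in 5.55% of all windows, while the Klf4 window held 2 copies. No member window contained the complete CRE, TGACGTCA (1.79% of all windows, and containing the core), or AAAGGTCA (1.51%), the sequence that NR4A monomers bind. CACCC, a KLF binding sequence, was in 57.5% of all windows, and in those of Nr4a2, Nr4a3, Klf2 and Egr2 among the members. The Klf6 window held none of the 6 sequences. The windows were 56.0% to 81.7% G or C, and a match describes letters only.

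**Figure D1:**
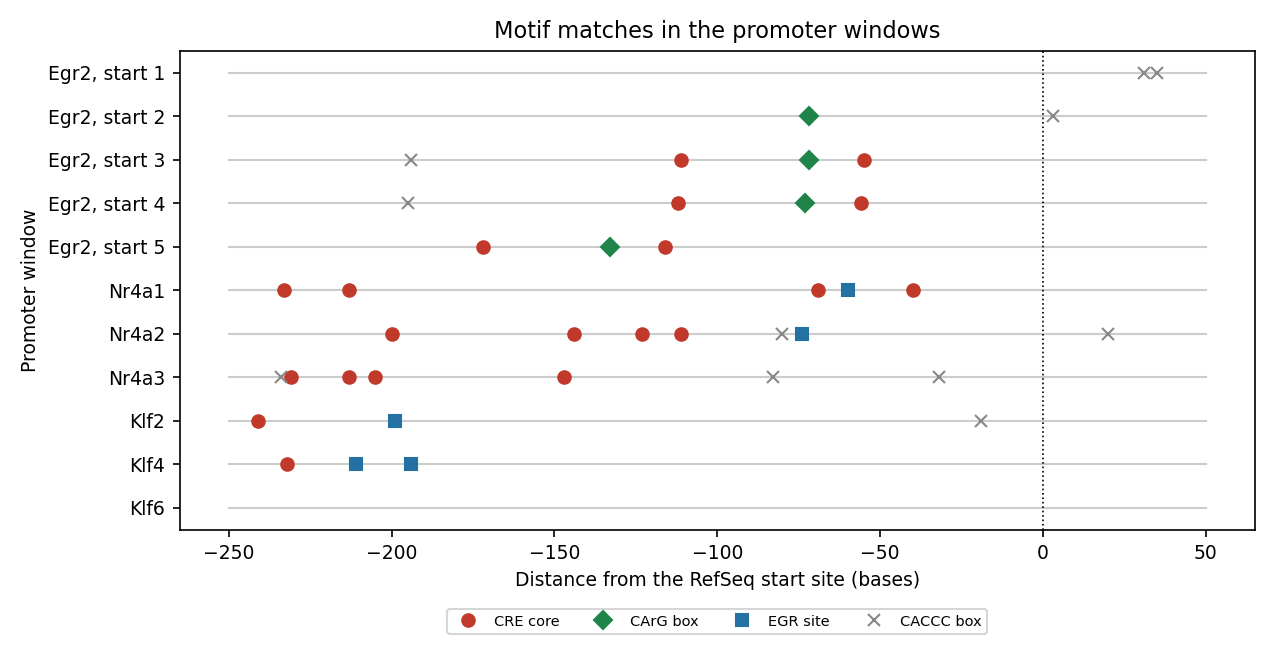
Positions of 4 sequence motifs in the 300-base promoter windows of 7 members, as the distance in bases from the RefSeq start; 1 row per window, 1 mark per match on either strand. The 3 Nr4a windows each carry 4 CRE cores, the CArG box appears in 4 of 5 Egr2 windows, and the Klf6 window is empty.

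Library depth ranged from 12098498 to 17904629 expected counts. The 3 libraries of Cxcl10-/- mice differed from the other 6 in several measures. Mitochondrial transcripts took 3.57% to 4.13% of their counts, against 12.6% to 13.1% in WT and 10.2% to 11.2% in Cxcr3-/-, and 12555 to 13895 genes were above 0, against 14498 to 16010 in WT and 14606 to 18344 in Cxcr3-/-. Cxcl10 itself had 0 counts in the 3 Cxcl10-/- libraries, 36, 84 and 3 in WT, and 112, 553 and 176 in Cxcr3-/-. Cxcr3 had 0 counts in every library except WT replicate 3, which had 8, so its level could not check the Cxcr3-/- label. The 12 LT-HSC markers summed to 720 to 827 FPKM in WT, 720 to 836 in Cxcl10-/- and 667 to 745 in Cxcr3-/-. Of them Kit alone was called lower in Cxcl10-/- than in WT by edgeR (log2 fold change -0.75 ± 0.17, adjusted p = 0.0260). Slamf1, the gene of the sort marker CD150, was at 6.87, 7.40 and 5.23 FPKM in WT and 0.69, 0.71 and 4.12 in Cxcl10-/- (-1.87 ± 0.69, edgeR adjusted p = 0.119). The 14 endothelial markers summed to 624 to 847 FPKM in Cxcl10-/-, 99.7 to 127 in WT and 91.4 to 147 in Cxcr3-/-.

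Of the 6 tested members 5 were higher in Cxcl10-/- LT-HSCs than in WT: Egr1, Nr4a1, Nr4a2, Klf2 and Klf6. Klf10 was not. In bulk samples, a difference in the number of cells of a type and in the RNA of each cell cannot be told apart. Of all 10866 tested genes, 3.52% were called higher in this comparison, 3.7% lower and 7.22% in either direction. The members' median log2 fold change was 3.51, against 0.06 over all tested genes. The FPKM of the same 5 members did not overlap between the groups, which held in the higher direction for 18.3% of the tested genes. Klf2 passed the abundance filter only through the Cxcl10-/- libraries, having averaged 0.767 FPKM over the other 6, so these counts and the median describe the 6 that passed and not the 10. DESeq2 also called 5 members higher (6.61% of all tested genes), and limma on log2(FPKM + 1) called 4 (6.1% of all tested genes), without Klf6. With mitochondrial genes left out of the fit edgeR again called 5.

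**Figure D2:**
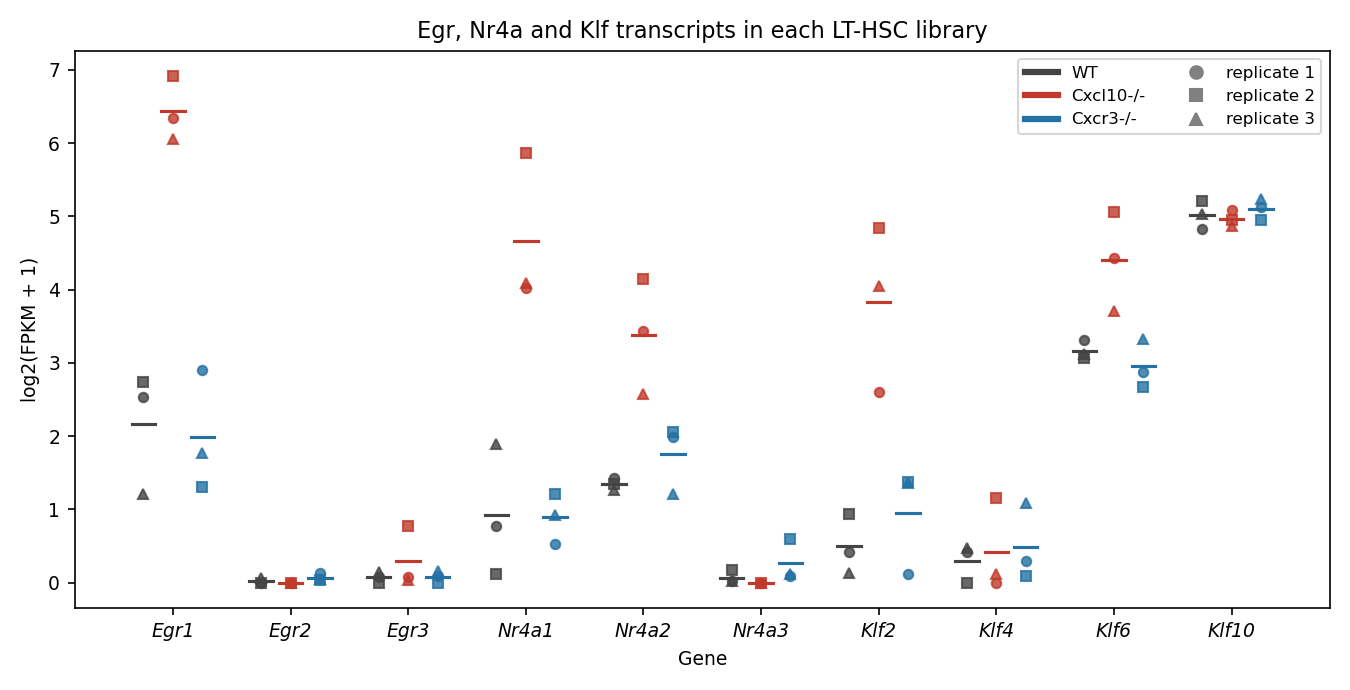
Level of each of the 10 members as log2(FPKM + 1) in the 9 libraries; colour gives the genotype, shape the replicate, and the bar the mean of 3 libraries. Egr1, Nr4a1, Nr4a2, Klf2 and Klf6 are higher in all 3 Cxcl10-/- libraries than in any other, and replicate 2 is the highest of the 3 for each.

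Egr1 (ENSMUSG00000038418), the best known immediate-early zinc-finger factor, stood at 4.78, 5.69 and 1.32 FPKM in WT replicates 1, 2 and 3. In Cxcl10-/- it reached 80.4, 120 and 65.5 FPKM, and in Cxcr3-/- 6.45, 1.46 and 2.40. Every Cxcl10-/- library was above every other library by more than 10 times, while the WT and Cxcr3-/- libraries overlapped. The group means were 3.93 ± 2.31 FPKM (SD, n = 3) in WT, 88.5 ± 27.9 in Cxcl10-/- and 3.44 ± 2.65 in Cxcr3-/-, and the Cxcl10-/- mean was 22.5 times that of WT. By edgeR's quasi-likelihood test the log2 fold change was 4.36 ± 0.59 (SE; adjusted p = 0.00312). Egr1 moved from a median percentile of 67.4 among all genes of a WT library to 94.0 in Cxcl10-/-, and stood at 58.6 in Cxcr3-/-. It passed the threshold under all 18 alternative settings, with log2 fold changes of 3.94 to 4.67 and a highest adjusted p of 0.0205.

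The other Egr genes were close to the detection limit. Egr2 (ENSMUSG00000037868), which acts in myelin formation and lymphocyte tolerance, had 0, 0 and 2 counts in WT, 0 in each Cxcl10-/- library and 1 in each Cxcr3-/- library. Egr3 (ENSMUSG00000033730), a close relative of Egr2 in lymphocytes, had 1, 0 and 7 counts in WT, 1, 39 and 1 in Cxcl10-/- and 3, 0 and 3 in Cxcr3-/-. The 39 counts were in Cxcl10-/- replicate 2, the library in which Egr1 was highest, and the remaining libraries overlapped. For Egr3 in Cxcl10-/- against WT the exact two-sided permutation p was 0.7, and 3 libraries against 3 cannot go below 0.1. The summed level of the 4 Egr genes, Egr4 at 0 throughout, was 3.99 ± 2.24 FPKM (SD, n = 3) in WT, 88.8 ± 28.3 in Cxcl10-/- and 3.54 ± 2.70 in Cxcr3-/-. Egr1 made up 96.5%, 99.8% and 97.0% of it.

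Nr4a1 (ENSMUSG00000023034), also called Nur77 and widely used as a reporter of antigen receptor signalling, was measured at 0.70, 0.08 and 2.71 FPKM in WT. Its level was 15.2, 57.2 and 16.1 FPKM in Cxcl10-/-, and 0.44, 1.32 and 0.90 in Cxcr3-/-. Replicate 2 of Cxcl10-/- was more than 3 times either of the other Cxcl10-/- libraries, and even the lowest of these was above the highest WT library. The means were 1.16 ± 1.37 FPKM (SD, n = 3), 29.5 ± 24.0 and 0.887 ± 0.440, and the log2 fold change of Cxcl10-/- against WT was 4.56 ± 0.96 (SE; edgeR adjusted p = 0.0173). Without Cxcl10-/- replicate 2 it was 3.69 (adjusted p = 0.0446, edgeR), and without WT replicate 1 the call was lost (4.32, adjusted p = 0.0852, edgeR). Over the alternatives its adjusted p ran from 5.16e-08 to 0.0852.

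Nr4a2 (ENSMUSG00000026826), or Nurr1, known for its part in dopamine neurons, was at 1.69, 1.55 and 1.41 FPKM in WT. It was at 9.76, 16.6 and 4.96 FPKM in Cxcl10-/- and at 2.97, 3.17 and 1.32 in Cxcr3-/-. WT libraries varied little for this gene (1.55 ± 0.14, SD, n = 3), and the lowest Cxcl10-/- library was above all WT and Cxcr3-/- libraries. The log2 fold change was 2.66 ± 0.54 (SE; edgeR adjusted p = 0.0138). The call was lost when any 1 WT library was left out, at adjusted p values of 0.0579, 0.0766 and 0.0685 in edgeR without replicates 1, 2 and 3, and the log2 fold change then stayed between 2.58 and 2.75.

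Nr4a3 (ENSMUSG00000028341), or Nor1, was the member of the family that did not share this pattern. It had 1, 10 and 1 counts in WT, 0 in all 3 Cxcl10-/- libraries, and 4, 41 and 5 in Cxcr3-/-. It was listed at 0 in the genotype in which Nr4a1 and Nr4a2 were highest, and its promoter window carries the same number of CRE cores as theirs. Whether these cores act in LT-HSCs was not tested. A fold is not given because WT and Cxcl10-/- were near the limit of 3 counts. In a fit of all 20476 genes with a count, edgeR gave an adjusted p of 0.233 for Cxcl10-/- against WT and 0.0801 for Cxcr3-/- against Cxcl10-/-. The exact permutation p on FPKM was 0.1 in both comparisons, the lowest possible with 3 libraries against 3. The 3 Nr4a genes together summed to 2.76 ± 1.23 FPKM (SD, n = 3) in WT, 39.9 ± 29.4 in Cxcl10-/- and 3.59 ± 1.35 in Cxcr3-/-. Nr4a1 was 33.1 ± 30.7% of that sum in WT, 71.6 ± 9.27% in Cxcl10-/- and 26.1 ± 13.2% in Cxcr3-/-, so that Nr4a1 was the main Nr4a transcript of the Cxcl10-/- libraries.

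Klf2 (ENSMUSG00000055148), a factor of endothelial and lymphocyte quiescence, was at 0.34, 0.92 and 0.09 FPKM in WT, or 9, 26 and 3 counts. It was at 5.07, 27.7 and 15.5 FPKM in Cxcl10-/-, or 127, 724 and 453 counts, and at 0.08, 1.60 and 1.57 FPKM in Cxcr3-/-. The Cxcl10-/- libraries spanned more than 5 times among themselves and lay above all others. The means were 0.450 ± 0.426 FPKM (SD, n = 3), 16.1 ± 11.3 and 1.08 ± 0.869. The log2 fold change of 5.06 ± 1.14 (SE; edgeR adjusted p = 0.0236) was the largest of the 6 tested members and had the widest error. It was not called without WT replicate 1, 2 or 3 (4.92, 6.10 and 4.56 with edgeR adjusted p values of 0.1005, 0.0579 and 0.0868).

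Klf6 (ENSMUSG00000000078), a broadly expressed factor induced by injury, was at 8.91, 7.36 and 7.69 FPKM in WT. It was at 20.5, 32.4 and 12.1 FPKM in Cxcl10-/- and at 6.36, 5.34 and 9.0 in Cxcr3-/-. The groups did not overlap, but the lowest Cxcl10-/- library was closer to the highest WT library, as a ratio, than for the other 4 members that rose. The log2 fold change was 1.33 ± 0.35 (SE; edgeR adjusted p = 0.0408). This was the least stable of the 5 calls, since it failed in 10 of 18 alternatives. It missed the threshold with limma on log2(FPKM + 1) (1.24, adjusted p = 0.0516). In edgeR it was also lost without any 1 WT library (adjusted p of 0.103, 0.156 and 0.136), without Cxcl10-/- replicate 2 (0.95, adjusted p = 0.0987), and without Cxcr3-/- replicate 1 or 2 (adjusted p of 0.0529 and 0.0516). Fitting only the 2 genotypes compared gave an adjusted p of 0.0664 in edgeR.

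Klf10 (ENSMUSG00000037465), which is induced by TGF-beta, was the most abundant member in WT and did not differ beyond its spread. It was at 27.3, 35.9 and 31.8 FPKM in WT, 32.8, 29.9 and 28.2 in Cxcl10-/- and 33.97, 29.81 and 36.69 in Cxcr3-/-, and all 3 groups overlapped. The log2 fold change of Cxcl10-/- against WT was -0.33 ± 0.21 (SE; edgeR adjusted p = 0.374). Klf4 (ENSMUSG00000003032), a factor of monocyte differentiation and pluripotency, was low in every library: 15, 0 and 21 counts in WT, 0, 52 and 4 in Cxcl10-/- and 9, 3 and 41 in Cxcr3-/-. Its exact permutation p for Cxcl10-/- against WT was 0.9. The Klf family as a whole, 17 genes in the table, summed to 92.4 ± 4.65 FPKM (SD, n = 3) in WT, 126 ± 22.0 in Cxcl10-/- and 89.5 to 107 over the Cxcr3-/- libraries. Klf10 made up 34.2 ± 3.00% of the sum in WT and 24.5 ± 4.36% in Cxcl10-/-. The share of Klf2 was 0.390%, 0.955% and 0.0962% in the WT libraries and 4.38%, 18.3% and 13.9% in the Cxcl10-/- libraries.

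In Cxcr3-/- LT-HSCs none of the 6 tested members was called against WT by edgeR or limma, and none had an unadjusted edgeR p under 0.05. edgeR called 0% of all tested genes in this comparison (681 genes had an unadjusted p under 0.05) and limma 0. DESeq2 called 0.718%, but it gave no adjusted p to 8637 of the 10866 genes, among them 5 of the 6 members; Egr1 alone had one (0.844). The edgeR log2 fold changes were -0.29 ± 0.54 (SE) for Egr1, -0.43 ± 0.88 for Nr4a1 and 0.67 ± 0.51 for Nr4a2. They were 1.23 ± 1.02 for Klf2, -0.27 ± 0.34 for Klf6 and -0.04 ± 0.21 for Klf10. The errors were widest for Klf2 and Nr4a1 and narrowest for Klf10, and a difference that misses the threshold at these errors does not show that the genotypes are alike. No member's groups were free of overlap, against 12.1% of tested genes in the higher and 7.63% in the lower direction.

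Set directly against each other, Cxcr3-/- was lower than Cxcl10-/- for 5 of the 6 tested members, where edgeR called 5.41% of all tested genes lower, 5.1% higher and 10.5% in either direction. DESeq2 and limma also called 5 members lower, against 8.79% and 7.81% of all tested genes. Egr1 fell by 4.64 on the log2 scale (SE 0.60; edgeR adjusted p = 0.00142) and Nr4a1 fell by 4.99 (SE 0.99; adjusted p = 0.0103). Nr4a2 fell by 1.99 (SE 0.53; edgeR adjusted p = 0.0326), Klf2 fell by 3.83 (SE 1.07; adjusted p = 0.0411) and Klf6 fell by 1.61 (SE 0.35; adjusted p = 0.0154). Klf10 stood at 0.29 ± 0.21 (edgeR adjusted p = 0.423). The same 5 genes had no overlap in FPKM, against 16.4% of tested genes in that direction. This comparison and that of Cxcl10-/- with WT share the 3 Cxcl10-/- libraries, so they are not separate evidence on those libraries. Leaving out Cxcr3-/- replicate 1 left Egr1 as the sole member called, and leaving out Cxcl10-/- replicate 2 ended the calls of Nr4a2 (fell by 1.54, edgeR adjusted p = 0.1002) and Klf2 (fell by 3.23, adjusted p = 0.102). There were 3 called members without WT replicate 1 or Cxcr3-/- replicate 3, and 2 without Cxcr3-/- replicate 2. Egr1 was called in all 18 alternatives, Nr4a1 lost its call in 1, Klf6 in 3, Klf2 in 7 and Nr4a2 in 8. For Egr1 the alternatives had a highest adjusted p of 0.0116.

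**Figure D3:**
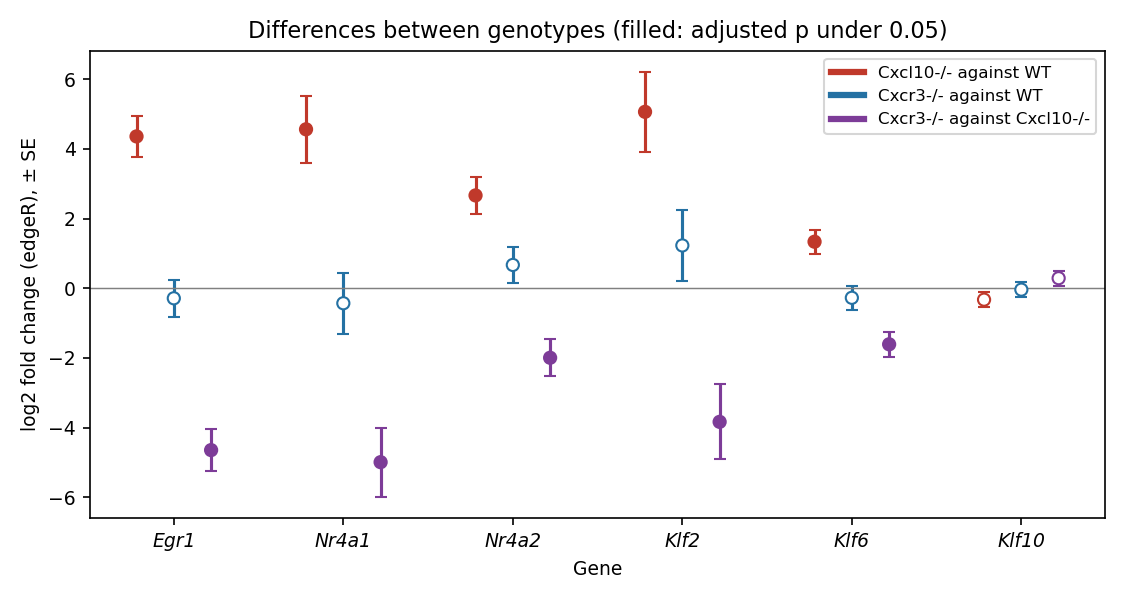
edgeR log2 fold changes with standard errors for the 6 tested members in the 3 pairs of genotypes, filled where the adjusted p is under 0.05. Egr1, Nr4a1, Nr4a2, Klf2 and Klf6 are filled above 0 for Cxcl10-/- against WT and below 0 for Cxcr3-/- against Cxcl10-/-, and no point is filled for Cxcr3-/- against WT.

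The 5 members that rose varied together across the 9 libraries, with Pearson correlations of log2(FPKM + 1) between 0.818 and 0.904 for every pair, and between -0.394 and -0.197 with Klf10. These 9 points fall into the Cxcl10-/- libraries and the rest, so the coefficients mainly restate the difference between genotypes. Among 10559 other tested genes, predicted genes left out, the closest to Egr1 were Jund (r = 0.975), Pnisr (0.974), Tspan7 (0.974), Fos (0.973) and Gpm6a (0.970). The closest to Nr4a1 were Mettl2 (0.990), Ibsp (0.982), Cxcl12 (0.981), Napsa (0.977) and Btg2 (0.975). Ibsp encodes a bone matrix protein and Cxcl12 the chemokine of marrow stroma, and both have the high value in Cxcl10-/- replicate 2 that Nr4a1 has (81.5 FPKM for Ibsp and 119 for Cxcl12, against 22.9 and 16.2, and 14.1 and 10.8, in replicates 1 and 3). The closest to Klf2 were Ndufs5 (0.969), Pfdn6 (0.963), Ndufs6 (0.963), Kpna6 (0.963) and Ndufa13 (0.960), of which Ndufs5, Ndufs6 and Ndufa13 encode subunits of respiratory complex I.

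Other immediate-early genes were compared with the members, since the Egr and Nr4a genes are usually induced alongside them. Of 35 listed genes, such as the AP-1 genes of the Fos and Jun families, 28 were tested, and 11 were higher in Cxcl10-/- than in WT, none lower, with a median log2 fold change of 1.65 (14 higher by DESeq2 and 13 by limma). Fos, Fosb, Ccn2 and Trib1 passed the abundance filter only through the Cxcl10-/- libraries, and Fos and Fosb are among the 11, so the count and the median describe the genes that passed. Fos, an AP-1 subunit, was at 1.22, 1.62 and 0.13 FPKM in WT, 144, 156 and 63.8 in Cxcl10-/- and 0.04, 0 and 0.55 in Cxcr3-/-. Its log2 fold change against WT was 6.84 ± 0.86 (SE; edgeR adjusted p = 0.00197). Ier2, a small nuclear protein gene, was at 13.1, 16.4 and 13.5 FPKM in WT and 114, 106 and 61.3 in Cxcl10-/- (2.61 ± 0.30, edgeR adjusted p = 0.00126). Dusp1, a phosphatase that switches off MAPKs, was at 24.3, 15.3 and 15.5 FPKM in WT and 61.1, 104 and 66.1 in Cxcl10-/- (1.95 ± 0.36, edgeR adjusted p = 0.00960). The other 8 called were Fosb, Jun, Junb, Jund, Btg2, Zfp36, Plk2 and Ppp1r15a. The count fell to 6, 3 and 6 without WT replicate 1, 2 or 3.

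In Cxcr3-/- against WT none of the 28 was called by edgeR or limma, 4 had an unadjusted edgeR p under 0.05, and the median log2 fold change was 0.29. DESeq2 gave no adjusted p to 26 of them. The edgeR fit of all 20476 genes with a count called 2 lower, Jun (-2.72 ± 0.48, adjusted p = 0.00131) and Fos (-2.51 ± 0.53, adjusted p = 0.0100). Between the knockouts 9 were lower in Cxcr3-/-, led by Fos (fell by 9.32, SE 1.01, edgeR adjusted p = 0.000667), Jun (fell by 5.57, SE 0.63, adjusted p = 0.000779) and Ier2 (fell by 2.44, SE 0.30, adjusted p = 0.00108). Jun, the AP-1 partner of Fos, was at 4.08, 4.05 and 1.61 FPKM in WT, 27.8, 27.8 and 22.4 in Cxcl10-/- and 0.98, 0.16 and 0.49 in Cxcr3-/-. Its Cxcr3-/- libraries were all below the WT libraries, and among the 10866 tested genes the difference was not called (-2.67 ± 0.56, edgeR adjusted p = 0.552), unlike in the fit of all genes with a count. Myc, a growth factor response gene, was the single listed gene that was higher in Cxcr3-/- than in Cxcl10-/- (0.97 ± 0.22, edgeR adjusted p = 0.0181). The count of 9 fell to 5 without Cxcr3-/- replicate 1.

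**Figure D4:**
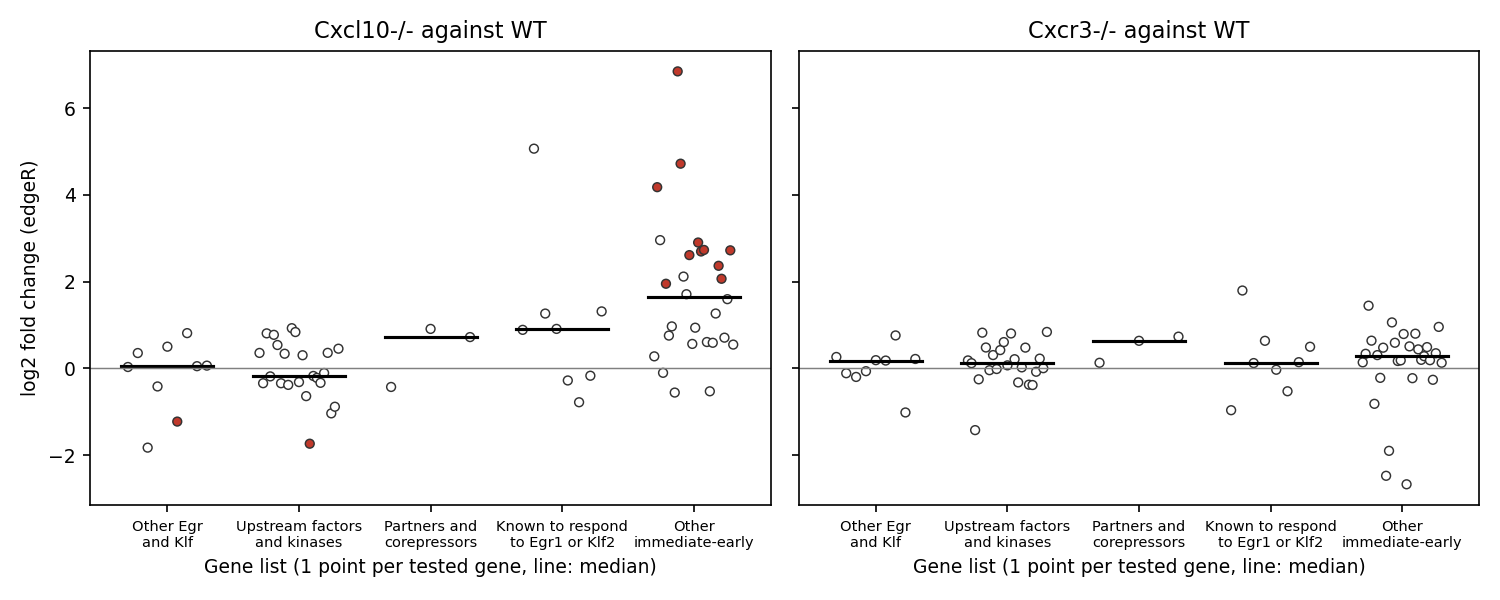
edgeR log2 fold changes of the tested genes of 5 lists, 1 point per gene, filled where the adjusted p is under 0.05, with a line at the median; left Cxcl10-/- against WT, right Cxcr3-/- against WT. The filled points above 0 on the left all belong to the other immediate-early genes, 11 of 28, and the right panel, from the fit of the 10866 tested genes, has no filled point.

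Genes that act upstream of the members were mostly not called. Of 24 listed factors and kinases (the SRF, ELK, CREB, CRTC and MEF2 factors and the ERK and RSK kinases) 23 were tested, with a median log2 fold change of -0.17 in Cxcl10-/- against WT, none called higher by edgeR or DESeq2 (limma called 1) and 1 called lower. The gene called lower was Mef2a, a MEF2 factor, at 13.8, 12.9 and 10.9 FPKM in WT, 7.46, 2.78 and 3.38 in Cxcl10-/- and 13.9, 9.45 and 8.01 in Cxcr3-/-. Its log2 fold change was -1.73 ± 0.34 (SE; edgeR adjusted p = 0.0127), and it was lost without WT replicate 1 or 2 (adjusted p of 0.0594 and 0.0579 in edgeR). Srf was at 1.44, 1.68 and 2.31 FPKM in WT and 6.63, 1.19 and 0.19 in Cxcl10-/-, a spread that covered the WT values (0.45 ± 0.96, edgeR adjusted p = 0.820). Crem, a cAMP-responsive factor gene, was at 7.56, 11.7 and 5.63 FPKM in WT, 12.8, 24.8 and 11.5 in Cxcl10-/- and 1.58, 5.47 and 1.24 in Cxcr3-/-. It fell by 2.23 between Cxcl10-/- and Cxcr3-/- (SE 0.64; edgeR adjusted p = 0.0445), a call lost in 7 of 18 alternatives. In that comparison Mef2a was the 1 listed gene called higher (1.41 ± 0.34, edgeR adjusted p = 0.0226), and limma did not call it (adjusted p = 0.0676).

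Of 14 further Egr and Klf genes 9 were tested, and edgeR, DESeq2 and limma called none higher in Cxcl10-/- than in WT. Their median log2 fold change in that comparison was 0.05. Klf7 was at 1.05, 1.16 and 1.32 FPKM in WT and 2.11, 1.94 and 2.53 in Cxcl10-/- (0.81 ± 0.42, edgeR adjusted p = 0.257). Klf3, a repressor of the family, was called lower by edgeR (-1.22 ± 0.27, adjusted p = 0.0226) and not by limma (adjusted p = 0.253). On the FPKM scale its Cxcl10-/- libraries, at 6.54, 11.6 and 5.51, overlapped the WT libraries at 10.2, 12.4 and 14.6. It was higher in Cxcr3-/- than in Cxcl10-/- by edgeR (1.41 ± 0.28, adjusted p = 0.00981) and again not by limma (adjusted p = 0.129). Of 5 partners and corepressors 3 were tested and none was called in any comparison by edgeR or limma, with 0 at an unadjusted edgeR p under 0.05 in Cxcl10-/- against WT and 1 in Cxcr3-/- against Cxcl10-/-. Nab2, which EGR1 induces and which in turn represses EGR1, was at 3.41, 5.36 and 3.56 FPKM in WT and 8.55, 7.16 and 8.83 in Cxcl10-/- (0.91 ± 0.47, edgeR adjusted p = 0.257). The 2 groups did not overlap for Nab2, which held in the higher direction for 18.3% of the tested genes.

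Of 13 genes known to respond to EGR1 or KLF2, 8 were tested and none was called by edgeR in any comparison; 2 had an unadjusted p under 0.05 in Cxcl10-/- against WT, where DESeq2 and limma each called 1 higher. In Cxcr3-/- against Cxcl10-/- 2 had an unadjusted edgeR p under 0.05, and limma called 2 lower and DESeq2 1. Their median log2 fold change was 0.90 in Cxcl10-/- against WT. Id3, an inhibitor of basic helix-loop-helix factors, was at 0, 0.87 and 0.44 FPKM in WT, 9.70, 31.0 and 6.86 in Cxcl10-/- and 3.42, 0 and 1.42 in Cxcr3-/-. Its log2 fold change was 5.06 ± 1.54 (SE; edgeR adjusted p = 0.0673). Cdkn1a, the gene of the cell cycle inhibitor p21, was at 4.83, 4.77 and 2.22 FPKM in WT and 9.23, 7.23 and 8.84 in Cxcl10-/- (0.89 ± 0.65, edgeR adjusted p = 0.440). S1pr1, a receptor gene that KLF2 activates in lymphocytes, was at 4.64, 6.82 and 7.33 FPKM in WT and 3.20, 6.97 and 1.59 in Cxcl10-/-, a difference of -0.78 ± 0.54 (edgeR adjusted p = 0.413).

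Markers of some other cell types moved with the members, and those of others did not. Of 14 endothelial markers, all tested, 7 were higher in Cxcl10-/- than in WT by edgeR and none was lower, and their median log2 fold change was 4.65. Cdh5, Flt4, Plvap, Stab1 and Stab2 passed the abundance filter only through the Cxcl10-/- libraries, and Flt4, Stab1 and Stab2 are 3 of the 7 called. DESeq2 and limma each called 11, while edgeR called 4 without any 1 of the 3 WT libraries. Fabp4, a lipid carrier of capillary endothelium, was at 287, 455 and 341 FPKM in Cxcl10-/-, 5.67, 18.2 and 5.92 in WT and 28.0, 3.59 and 28.7 in Cxcr3-/-. Stab1, a scavenger receptor of sinusoids, was at 61.8, 53.7 and 40.1 FPKM in Cxcl10-/- and 0.19, 0.60 and 1.90 in WT. Among the 7 markers that edgeR did not call were Pecam1 (0.23 ± 0.56, adjusted p = 0.846) and Emcn (-0.02 ± 0.29, adjusted p = 0.974). No endothelial marker was at 0 in all libraries of a group, and 7 of the 14 averaged under 1 FPKM in WT and 5 in Cxcr3-/-, whereas none did in Cxcl10-/-. Klf2 is known as an endothelial gene, and Egr1 and Fos are induced in many cell types. Which cells their transcripts came from was not tested. Fabp4, Stab1, Pecam1 and Emcn are named here as examples chosen after their values were seen.

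The 10 stromal and bone markers summed to 57.0, 303 and 39.5 FPKM in Cxcl10-/- replicates 1, 2 and 3, against 10.6 to 17.3 in WT and 6.59 to 17.7 in Cxcr3-/-. Of the 5 tested edgeR called 3 higher in Cxcl10-/- than in WT (Cxcl12, Adipoq and Ibsp), while DESeq2 and limma each called 2. The 3 that edgeR called, and Lepr, passed the abundance filter only through the Cxcl10-/- libraries. Col1a1, Col3a1, Adipoq and Bglap were at 0 in all WT libraries. In Cxcl10-/- replicates 1, 2 and 3 Adipoq was at 1.37, 21.8 and 0.05 FPKM. There Col1a1 was at 0, 0.10 and 0, Col3a1 at 0, 0.98 and 0, and Bglap at 0 throughout. Erythroid markers summed to 31.5, 262 and 126 FPKM in Cxcl10-/- and 11.9 to 30.3 in WT, with 1 of 4 tested called higher. Neutrophil markers summed to 14.5 to 180 FPKM, highest in replicate 2, and 11.1 to 22.8 in WT, with 0 of 3 called by edgeR (1 at an unadjusted p under 0.05), 0 by limma and 1 by DESeq2. Monocyte and macrophage markers summed to 422 to 471 FPKM in Cxcl10-/- and 558 to 683 in WT, and 1 of 5 tested was higher (Vcam1, also made by endothelium). Lyz2 made up most of these sums, at 370, 373 and 441 FPKM in Cxcl10-/- and 661, 548 and 543 in WT. By edgeR Lyz2 (-0.65 ± 0.22, adjusted p = 0.0879) and Cd68 (-0.65 ± 1.08, adjusted p = 0.763) were not called lower. C1qb (2.06 ± 0.98, adjusted p = 0.221) and Csf1r (0.82 ± 1.35, adjusted p = 0.759) were not called higher. Among B cell, T and NK cell and megakaryocyte markers none was called higher by edgeR, and Nkg7 of the T and NK cell list was called lower (-0.98 ± 0.23, adjusted p = 0.0292). CD48, absent from the sorted cells' surface, had transcripts at 17.8, 20.1 and 8.76 FPKM in WT, 0, 7.94 and 0 in Cxcl10-/- and 7.24, 19.6 and 0.18 in Cxcr3-/-. Flt3, the gene of CD135, which the sort also excluded, went the other way. It was at 4.17, 6.08 and 4.75 FPKM in WT and 13.8, 9.70 and 6.45 in Cxcl10-/- (0.90 ± 0.36, edgeR adjusted p = 0.150). Cxcl10-/- replicate 2, the library with the highest level of all 5 members that rose, thus also had the highest sum of endothelial, stromal, erythroid and neutrophil markers. Its LT-HSC marker sum was the highest too, at 836 FPKM against 808 and 720 in Cxcl10-/- replicates 1 and 3. Among the Cxcl10-/- libraries, B cell markers and monocyte and macrophage markers summed highest in replicate 3, and megakaryocyte markers in replicate 1. Without Cxcl10-/- replicate 2 Egr1, Nr4a1, Nr4a2 and Klf2 remained past the threshold and Klf6 did not, and the endothelial count was 5. The part of these markers' cells in the levels of the members was not tested. 

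**Figure D5:**
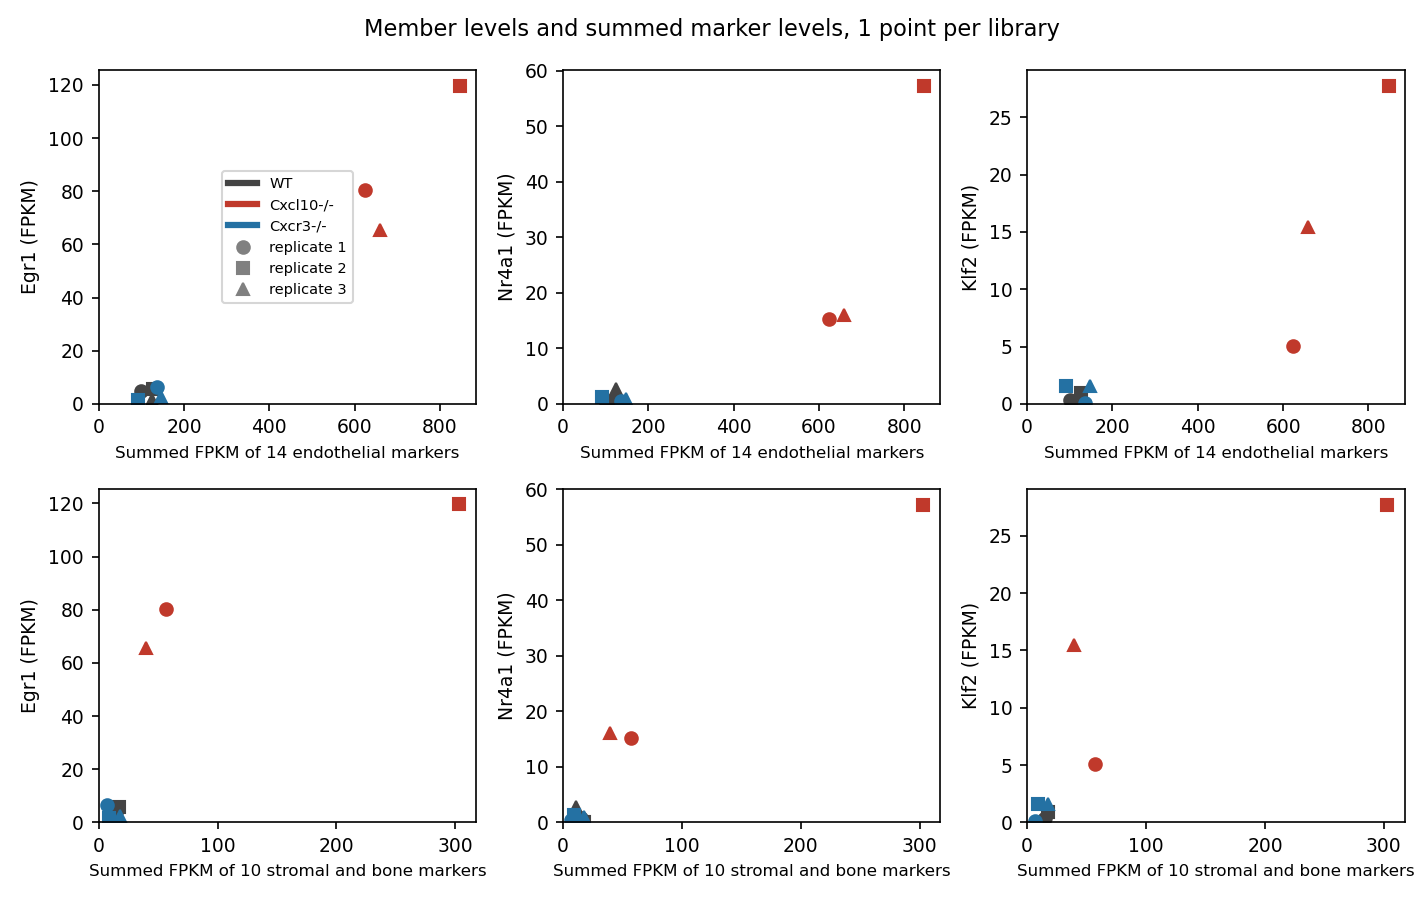
FPKM of Egr1, Nr4a1 and Klf2 (vertical axes) against the summed FPKM of 14 endothelial markers (top) and 10 stromal and bone markers (bottom), 1 point per library. The 3 Cxcl10-/- libraries lie apart at 624 to 847 FPKM of endothelial markers, of which Fabp4 alone is 287 to 455. Replicate 2 of Cxcl10-/- has the highest value on every axis.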

How the data were processed

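Polyadenylated RNA of sorted LT-HSCs from 9 mice (3 per genotype) was amplified (Discover-sc WTA Kit V2) and made into libraries (TruePrep DNA Library Prep Kit V2) before sequencing. Replicates are separate mice, per the labels. The deposited table gives FPKM and counts for 22322 genes per the file headers. The counts made by the authors were taken to be expected counts as deposited, since 87.1% of the deposited values are whole and the rest fractional. RSEM, StringTie, HISAT2 and fastp appear in the submitters' processing notes, while versions, genome build and annotation were not given in the sources used here. FPKM was used for levels, and rounded expected counts for tests.

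Testing was restricted to the 10866 genes that averaged 1 FPKM or more, using edgeR 4.0.16 in R 4.3.3: TMM factors, a quasi-likelihood fit of all 9 libraries with 1 coefficient per genotype, and Benjamini-Hochberg adjustment over all tested genes at 0.05. SE is the log2 fold change over the square root of F. Alternatives were DESeq2 1.42.0, limma 3.58.1 on log2(FPKM + 1) and log2(FPKM + 0.1), RLE factors, other filters, mitochondrial genes left out, only 2 genotypes, a replicate block and leaving out each library. The scripts were tested on simulated data. Of the members below the filter, Egr3, Klf4 and Nr4a3 were compared by exact permutation tests, and Nr4a3 also in the edgeR fit of all genes with a count. SDs come from the spread between the 3 libraries of a genotype.

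All members, up to 3 called genes per list and comparison with the smallest p, and the 5 genes most correlated with Egr1, Nr4a1 and Klf2 are named; other genes named were chosen after their values were seen. The members and lists were chosen with earlier results of these data known. Promoter windows come from RefSeq (GRCm38.p6).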

Additional observations from a re-analysis of the deposited data

How the results depend on the processing

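Egr1 passed the threshold in all 18 alternatives in both comparisons with Cxcl10-/-, and Klf10 in none. In Cxcl10-/- against WT the count of called genes was 785, against 1498 with DESeq2, 1183 with all genes that had a count and 414 with only the 2 genotypes, and 193 to 1003 when 1 library was left out (229, 193 and 253 without WT replicate 1, 2 and 3); called members then ran from 1 to 5 (1, 2 and 2 without those libraries). In Cxcr3-/- against WT it was 0, against 78 with DESeq2 and 38 with all genes, and 0 to 6 when 1 library was left out (6 without Cxcr3-/- replicate 2). In Cxcr3-/- against Cxcl10-/- it was 1142, against 1814 with DESeq2 and 423 with only the 2 genotypes, and 423 to 1407 when 1 library was left out (423 and 517 without Cxcr3-/- replicate 1 and 3); called members were 2 with only the 2 genotypes and 1 to 5 when 1 library was left out. Leaving out a library leaves fewer samples to estimate the spread. Uncalled differences in Cxcr3-/- against WT changed sign for Klf10 (0.082 with limma at a pseudocount of 1, 0.085 at 0.1, and -0.089 to 0.055 when 1 library was left out), Nr4a1 (0.31 with limma at a pseudocount of 0.1, -0.98 to 1.11 when 1 library was left out) and Egr1 (-1.10 to 0.079 when 1 library was left out); the cause was not tested. The replicate numbers did not pair the samples: deviations from the group means correlated at -0.0857 to 0.0309 for the same number and -0.0493 to 0.0962 for different numbers, and not every library correlated best with its own number. With the replicate block 442 genes were called in Cxcl10-/- against WT, and Klf6 was not called (1.31, edgeR adjusted p = 0.0839). Egr2, Egr3, Nr4a3 and Klf4 had 0 to 52 counts per library and were not among the 10866 tested genes.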

Other observations

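For some Klf genes the FPKM and the expected counts diverged, as did the transcript length that the FPKM imply. That length is proportional, within a library, to the expected count, scaled to the library total, over the FPKM. This quotient was 0.431 times as large in Cxcl10-/- as in WT for Klf13, 0.798 times for Klf3 and 0.880 times for Klf10. Over 10163 tested genes above 0 in all libraries the median ratio was 1.00, and it was 0.998 for Klf2, 1.00 for Klf6, 1.01 for Nr4a1, 1.03 for Nr4a2 and 0.958 for Egr1. Klf13, an activator of chemokine genes in T cells, was at 7.33, 8.70 and 7.34 FPKM in WT and 3.10, 15.3 and 26.0 in Cxcl10-/-, while its log2 fold change from the counts was -0.42 ± 0.52 (SE; edgeR adjusted p = 0.677). For Klf3 the ratio was low in Cxcl10-/- replicate 2 alone (2.27, against 4.97 to 5.22 in the other 8 libraries), which is the library that overlaps WT on the FPKM scale. These genes were singled out after their values were seen.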
